A study of Homo sapiens with 66 samples.

Results

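The comparison set out here is that of hNMP-D4 with hNMP-D3, the fourth and the third day on which H9 human embryonic stem cells were turned into human neuromesodermal progenitors (hNMPs). It uses the 3 hNMP-D4 libraries and the 3 hNMP-D3 libraries, 6 of the 66 RNA-seq libraries in the 22 groups of the series, and covers every gene that passed a filter on low counts. H9 is an established line of human embryonic stem cells, unmodified here, and all 6 libraries come from that single line. Cells were seeded in mTeSR, a medium that keeps stem cells undifferentiated, and then kept in an N2B27-type medium with FGF2, the GSK3 inhibitor CHIR99021, which activates Wnt signalling, and the dual-SMAD inhibitors SB431542 and Dorsomorphin. Both groups had the same medium, changed daily, and the hNMP-D4 cells were taken 1 day later than the hNMP-D3 cells. The other libraries follow the line from the stem cell state through neural determination (NeuDet) to spinal cord progenitors (hSCNPC) and motor neurons.

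Neuromesodermal progenitors are the bipotent cells of the embryo's caudal end that give rise to both the spinal cord and the paraxial mesoderm, and they are recognised by joint expression of SOX2, a transcription factor of pluripotent and neural cells, and TBXT (Brachyury), a T-box factor of the primitive streak. Wnt and FGF signals maintain them, and CDX factors link these signals to the HOX clusters. HOX genes are then switched on in order from the 3′ to the 5′ end of each cluster.

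Total counts were 19469081 to 25141664 in hNMP-D4 and 14970578 to 24649188 in hNMP-D3, and 7.48 to 7.94% of counts in hNMP-D4 and 7.45 to 8.13% in hNMP-D3 came from the mitochondrial genome. Levels are counts scaled to a common library total (CPM) after TMM scaling, which corrects for differences in library composition, and 3 values in a row are replicates 1, 2 and 3 of a group. CPM is not divided by gene length, so levels are compared between libraries and not between genes. Differences are log2 fold changes of hNMP-D4 over hNMP-D3 with their standard error (SE) from edgeR's quasi-likelihood test, and a gene was called at a Benjamini-Hochberg adjusted p of 0.05 or less over all genes tested. Every adjusted p below is from that edgeR fit. Nothing in the labels tells if replicates of a day were grown apart, so the p-values measure only the spread between these libraries, which may be technical. In bulk RNA, fewer cells of a type and less RNA per cell cannot be told apart.

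The promoters of 3 caudal genes are shown first, since these genes, called higher in hNMP-D4, are known as targets of Wnt signalling in the caudal embryo. The letters CTTTGA, the core that TCF/LEF factors recognise, were searched on both strands (TCAAAG is the same core on the other strand) and matches are in capitals. Sequences are from RefSeq (GRCh38.p14) and run 5′ to 3′ on the gene's own strand, from 250 bases before to 50 after the annotated start. They span chr2:170715087-170715386 (plus strand) for SP5, chr13:27969266-27969565 (minus strand) for CDX2 and chr6:166168606-166168905 (minus strand) for TBXT.
SP5: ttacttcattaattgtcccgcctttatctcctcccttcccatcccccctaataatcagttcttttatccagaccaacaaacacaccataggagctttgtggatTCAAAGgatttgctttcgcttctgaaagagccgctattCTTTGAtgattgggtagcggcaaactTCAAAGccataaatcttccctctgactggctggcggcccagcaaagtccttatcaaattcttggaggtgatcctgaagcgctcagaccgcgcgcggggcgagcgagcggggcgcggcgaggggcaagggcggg
CDX2: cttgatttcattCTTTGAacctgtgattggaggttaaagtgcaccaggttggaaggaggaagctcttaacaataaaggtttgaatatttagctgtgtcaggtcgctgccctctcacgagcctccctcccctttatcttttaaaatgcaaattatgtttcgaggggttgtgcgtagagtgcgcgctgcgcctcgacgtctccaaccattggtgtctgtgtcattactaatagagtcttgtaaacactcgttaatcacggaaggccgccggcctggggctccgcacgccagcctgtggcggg
TBXT: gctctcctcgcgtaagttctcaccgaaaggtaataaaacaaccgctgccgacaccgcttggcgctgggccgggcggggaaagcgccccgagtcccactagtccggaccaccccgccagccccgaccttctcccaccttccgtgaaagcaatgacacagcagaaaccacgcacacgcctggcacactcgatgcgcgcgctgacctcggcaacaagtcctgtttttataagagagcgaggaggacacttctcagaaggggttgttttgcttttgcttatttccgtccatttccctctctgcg
SP5 had 3 matches, which begin 147, 109 and 83 bases before the start, CDX2 had 1, 238 bases before it, and TBXT had 0. Of the 13 listed WNT targets called higher, 7 had a promoter in the RefSeq table and 1 of these (14.3%), SP5, held a match, against 4536 of all 35116 promoters of this length (12.9%). Among listed WNT targets not called higher, DKK1 held 2 matches and SP8 held 1, while BAMBI, NKD2, TCF7L1 and TCF7L2 held 0. Each of these genes was searched only in its first promoter entry. A match is a description of the letters and not a binding site.

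Of 17457 genes tested, 2689 (15.4%) were higher and 2489 (14.3%) were lower in hNMP-D4 than in hNMP-D3. All counts of list members below stand against these shares over all genes. The rises were larger than the falls. The median log2 fold change was 0.71 among the genes called higher, -0.50 among those called lower and 0.02 over all genes tested. Changes of more than 2-fold numbered 898 upwards and 385 downwards, and changes of more than 4-fold numbered 268 upwards and 51 downwards. Of the called genes, 2362 higher and 2256 lower ones were protein coding, and 235 higher and 172 lower ones were lncRNAs. The libraries of the 2 days did not overlap in CPM in 7988 genes (45.8%), among them 2636 of the genes called higher and 2469 of those called lower. Leaving out 1 library changed the counts. Such a fit also has fewer libraries, and the part of this in the lower counts was not tested. Without hNMP-D4 replicate 2, edgeR called 1824 genes higher and 1553 lower, and without hNMP-D3 replicate 1, 2 or 3 it called 1702, 1673 and 1568 higher and 1569, 1557 and 1470 lower. Without hNMP-D4 replicate 3 the counts were 3621 higher and 3637 lower, and without hNMP-D4 replicate 1 they were 2560 and 2315.

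**Figure D1:**
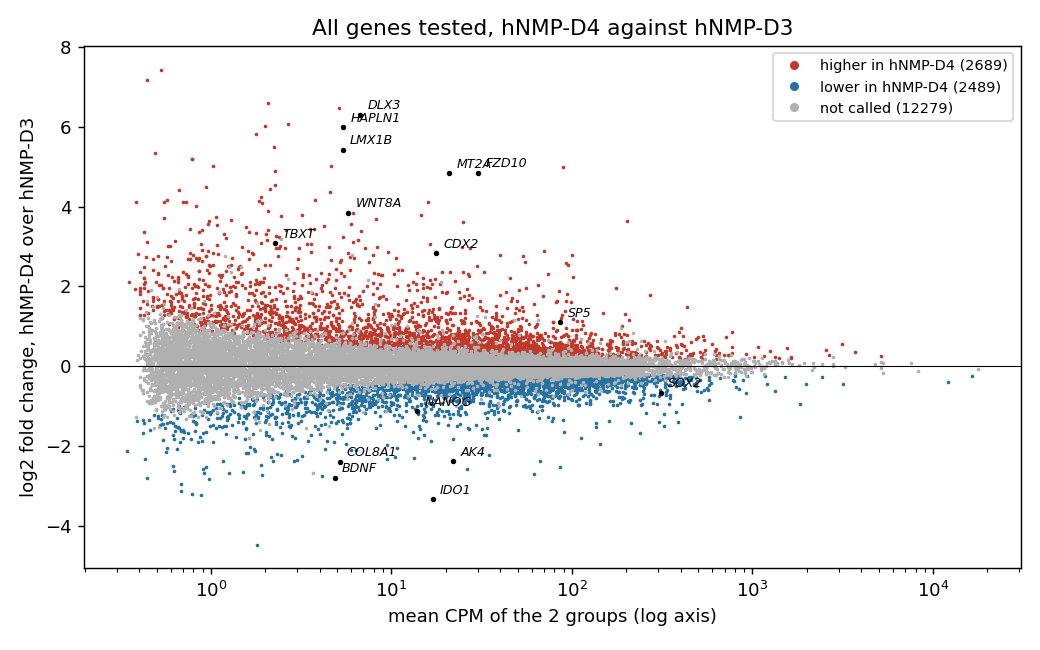
Each point is 1 of the 17457 genes tested, with the mean CPM of both groups on the x axis (log scale) and the log2 fold change of hNMP-D4 over hNMP-D3 on the y axis. Red points were called higher (2689) and blue points lower (2489) by edgeR, grey points were not called, and the upper arm reaches further from 0, with 268 genes over 4-fold higher against 51 over 4-fold lower.

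The hNMP-D4 libraries were spread more widely than those of the other 15 groups in the same table by the measure used here. Spread was taken as the root mean square (RMS) difference in log2 CPM between the libraries of a group, over 21597 genes. It was 0.560 in hNMP-D4 and 0.511 in hNMP-D3, against 0.366 (NeuDet-D1) to 0.524 (hSCNPC-P30) in the remaining 14 groups. Within hNMP-D4, replicates 1 and 3 were furthest apart (0.611), and replicates 1 and 2 (0.538) and replicates 2 and 3 (0.528) were closer. The hNMP-D3 pairs lay between 0.472 and 0.543, so the closer hNMP-D4 pairs were no further apart than the widest hNMP-D3 pair. The measure depends on low counts, and with a prior count of 0.5 in place of 2 it was 0.718 in hNMP-D4 and 0.715 in hNMP-D3, whereas over genes with a mean of at least 10 CPM it was 0.289 in hNMP-D4 and 0.170 in hNMP-D3. Among the 9963 genes with a mean of at least 10 CPM, the median SD of log2 CPM was 0.131 in hNMP-D4 and 0.0783 in hNMP-D3. The SD was larger in hNMP-D4 in 7260 of these genes (72.9%), and it passed 0.5 in 220 genes in hNMP-D4 and in 24 genes in hNMP-D3.

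The 3 hNMP-D4 libraries also stood at different distances from hNMP-D3. On the line that joins the mean of hNMP-D3 (0%) to the mean of NeuDet-D1 (100%), the next stage sampled, hNMP-D4 replicates 1, 2 and 3 lay at 43.5%, 30.9% and 19.6%, and the hNMP-D3 libraries lay between -0.84% and 0.82%. NeuDet-D1 cells had been dissociated and re-plated in another medium, so this line holds both time and the change of culture. Replicate 3 was the hNMP-D4 library nearest to hNMP-D3 in 1498 of the 2689 genes called higher (55.7%) and in 1551 of the 2489 genes called lower (62.3%). In a principal component analysis of the 2000 most variable genes, the first component (72.6% of the variance) separated the days, with hNMP-D4 at -37.89, -36.05 and -24.70 and hNMP-D3 at 29.24, 36.15 and 33.24. The second (10.7%) separated the hNMP-D4 libraries, which lay at -21.32, 4.03 and 20.86, while hNMP-D3 lay between -7.76 and 2.64. Total counts of hNMP-D4 replicates 1, 2 and 3 were 20091464, 19469081 and 25141664, and their mitochondrial shares 7.48, 7.71 and 7.94%, whose part in the spread was not tested.

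**Figure D2:**
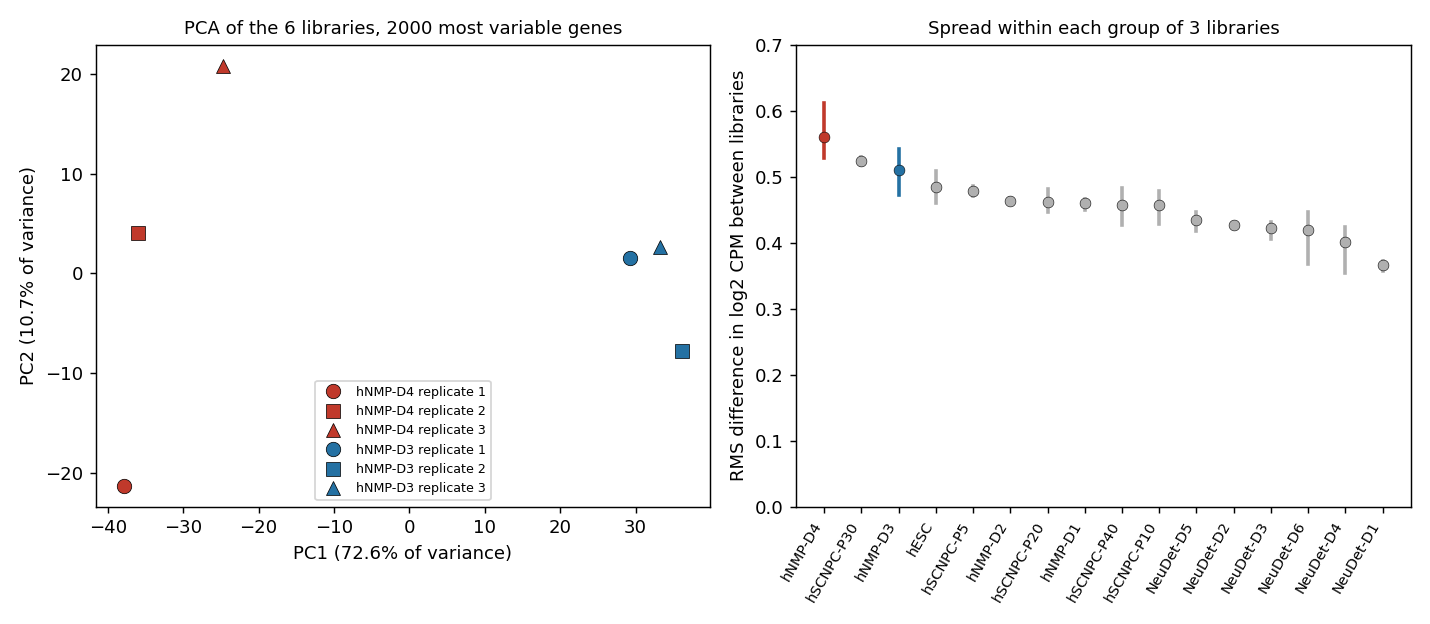
The left panel plots the 6 libraries on the first 2 principal components (share of variance on each axis), where the hNMP-D4 libraries (red) run from -21.32 to 20.86 along the second component and the hNMP-D3 libraries (blue) stay between -7.76 and 2.64. The right panel gives the RMS difference in log2 CPM among the 3 libraries of each of 16 groups (points) with the closest and widest pair (line ends), highest in hNMP-D4 at 0.560.

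TBXT, at only 4 to 13 counts a library in hNMP-D3, was higher on day 4, while SOX2 was lower. TBXT (chr6:166157656-166168700 in hg38, protein coding) had 5.87, 3.03 and 3.27 CPM in hNMP-D4 and 0.801, 0.2703 and 0.3699 CPM in hNMP-D3, with no overlap (log2 fold change 3.08, SE 0.404, adjusted p = 0.000411). SOX2 had 282, 239.7 and 205 CPM in hNMP-D4 and 369.7, 377 and 396 CPM in hNMP-D3 (log2 fold change -0.66, SE 0.105, adjusted p = 0.00123). WNT8A, a Wnt ligand of the gastrulating embryo, had 16.4, 10.8 and 5.14 CPM in hNMP-D4 and 1.17, 0.338 and 0.699 CPM in hNMP-D3 (log2 fold change 3.85, SE 0.554, adjusted p = 0.00261). In each of these genes the 2 days did not overlap, the call held without any one library, and replicate 1 had the highest level of the 3 hNMP-D4 libraries.

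The caudal homeobox factor CDX2 and the Wnt-responsive zinc finger factor SP5 were higher by amounts that differed between the hNMP-D4 libraries. CDX2 (chr13:27960918-27969315) had 53.8, 25.6 and 13.4 CPM in hNMP-D4 and 3.45, 5.74 and 3.86 CPM in hNMP-D3 (log2 fold change 2.84, SE 0.601, adjusted p = 0.0206). CDX2 was not called without hNMP-D3 replicate 1 or 3 (adjusted p = 0.0825 and 0.0692). SP5 (chr2:170715337-170718078) had 163, 116 and 74.96 CPM in hNMP-D4 and 54.1, 58.3 and 52.1 CPM in hNMP-D3 (log2 fold change 1.10, SE 0.279, adjusted p = 0.0317). SP5 was not called without hNMP-D4 replicate 2 or hNMP-D3 replicate 1, 2 or 3 (adjusted p = 0.0595, 0.0943, 0.0609 and 0.0958). For both genes every hNMP-D4 library lay above every hNMP-D3 library, with replicate 1 furthest from hNMP-D3 and replicate 3 nearest.

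NKX1-2, a homeobox gene of caudal progenitors, did not pass the test. It had 229, 145 and 139 CPM in hNMP-D4 and 117, 122 and 106 CPM in hNMP-D3 (log2 fold change 0.58, adjusted p = 0.0568), so the groups did not overlap. NKX1-2 was called without hNMP-D4 replicate 1 or 2 (adjusted p = 0.0156 and 0.0479). CDX1 had 4.48, 1.46 and 0.518 CPM in hNMP-D4 and 0.493, 0.541 and 0.247 CPM in hNMP-D3 (log2 fold change 2.37, adjusted p = 0.0781). CDX1 was called without hNMP-D4 replicate 3 (adjusted p = 0.00144). CDX4 had 1.99, 2.68 and 4.26 CPM in hNMP-D4 and 4.13, 3.58 and 3.66 CPM in hNMP-D3 (log2 fold change -0.33, adjusted p = 0.375). CDX4 was called without hNMP-D4 replicate 3 (adjusted p = 0.0203). In hNMP-D4 replicate 3, CDX1 was inside its hNMP-D3 range and CDX4 above it, while in replicates 1 and 2 CDX1 was above and CDX4 below its hNMP-D3 range.

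Of 17 listed neuromesodermal progenitor genes, 13 were tested, and 5 were higher and 1 lower, with a median log2 fold change of 0.67 against 0.02 over all genes. The higher ones were TBXT, WNT8A, CDX2, SP5 and GREB1, the lower one SOX2. GREB1, a nuclear cofactor that also responds to estrogen, was named after its values were seen, with 35.2, 36.2 and 19.6 CPM in hNMP-D4 and 19.7, 18.99 and 18.3 CPM in hNMP-D3 (log2 fold change 0.67, SE 0.213, adjusted p = 0.04296). GREB1 was not called without hNMP-D4 replicate 1 or 2 or hNMP-D3 replicate 1, 2 or 3 (adjusted p = 0.132, 0.135, 0.102, 0.1202 and 0.132). The count of 5 became 2, 3 and 2 without hNMP-D3 replicate 1, 2 or 3, and that of 1 lower became 2 without hNMP-D4 replicate 1 or 3. Several known genes of axial progenitors were too low to test. The ligand FGF8 was at 0 to 0.202 CPM in hNMP-D4 and 0.164 to 0.246 CPM in hNMP-D3, the ligand WNT3A at 0.0399 to 0.151 CPM in hNMP-D4 and 0 to 0.0676 CPM in hNMP-D3, and CYP26A1, which breaks down retinoic acid, at 0 to 0.0505 CPM in hNMP-D4 and 0 to 0.0616 CPM in hNMP-D3. The hNMP-D4 libraries thus held SOX2, NKX1-2 and CDX2, little TBXT, and next to no FGF8, WNT3A or CYP26A1 RNA.

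**Figure D3:**
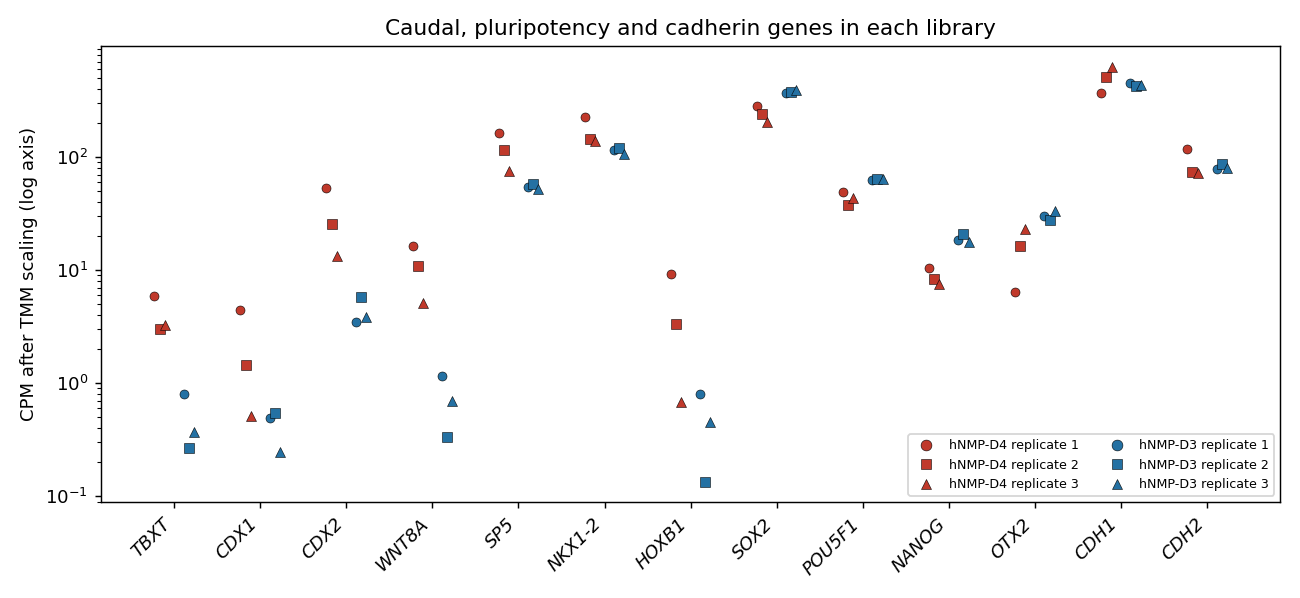
CPM after TMM scaling (log axis) of 13 genes, with the hNMP-D4 libraries in red to the left and the hNMP-D3 libraries in blue to the right of each gene, and 1 marker shape per replicate. TBXT, CDX2, WNT8A, SP5 and NKX1-2 lie above hNMP-D3 in all 3 hNMP-D4 libraries, SOX2, POU5F1, NANOG and OTX2 lie below it, and CDX2 spans 13.4 to 53.8 CPM within hNMP-D4.

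HOXB1, of the 3′ end of the HOXB cluster, had 9.21, 3.33 and 0.678 CPM in hNMP-D4 and 0.801, 0.135 and 0.452 CPM in hNMP-D3 (log2 fold change 3.20, adjusted p = 0.0879), with replicate 3 inside the hNMP-D3 range. HOXB1 was called without hNMP-D4 replicate 3 (adjusted p = 0.0113). HOXB9, of the trunk part of its cluster, was at 0 to 1.34 CPM in hNMP-D4 and 0.0411 to 0.135 CPM in hNMP-D3, and its only hNMP-D4 signal was in replicate 1. Of 11 HOX cofactors, all tested, 4 were higher and 1 lower (36.4% and 9.09%, beside 15.4% and 14.3% over all genes, median 0.27). MEIS2, a TALE-class partner of HOX proteins, had 55.1, 58.9 and 30.6 CPM in hNMP-D4 and 6.78, 6.96 and 5.01 CPM in hNMP-D3 (log2 fold change 2.96, SE 0.279, adjusted p = 0.000336).

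Wnt signalling genes were among those with most higher members. Of 20 tested WNT targets 13 were higher and 2 lower (median log2 fold change 0.73, against 0.02 over all genes). TNFRSF19, a receptor induced by Wnt, had 36.1, 31.8 and 19.4 CPM in hNMP-D4 and 3.08, 3.78 and 3.49 CPM in hNMP-D3 (log2 fold change 3.07, SE 0.238, adjusted p = 3.46e-05). LEF1, a TCF/LEF factor that carries the Wnt signal to DNA, had 34.7, 22.9 and 14.4 CPM in hNMP-D4 and 5.92, 6.96 and 4.52 CPM in hNMP-D3 (log2 fold change 2.06, SE 0.341, adjusted p = 0.004502). NOTUM, a secreted enzyme that inactivates Wnt ligands, had 7.96, 7.87 and 8.21 CPM in hNMP-D4 and 1.91, 1.69 and 1.77 CPM in hNMP-D3 (log2 fold change 2.16, SE 0.17, adjusted p = 1.46e-05). All 3 genes were apart from hNMP-D3 in every library, but LEF1 and TNFRSF19 differed within hNMP-D4 in the order of CDX2, with replicate 1 highest, and NOTUM was level. NKD1, an intracellular Wnt inhibitor, had 56.7, 37.7 and 17.8 CPM in hNMP-D4 and 10.3, 10.8 and 9.49 CPM in hNMP-D3 (log2 fold change 1.87, SE 0.436, adjusted p = 0.02598). NKD1 was not called without hNMP-D3 replicate 1, 2 or 3 (adjusted p = 0.0855, 0.0504 and 0.0825). The lower members were TCF7L1, a repressor of the pathway, with 23.1, 33.4 and 29.5 CPM in hNMP-D4 and 43.4, 38.2 and 48.4 CPM in hNMP-D3 (log2 fold change -0.60, SE 0.138, adjusted p = 0.00873), and MYC (log2 fold change -0.46, SE 0.148, adjusted p = 0.0358). MYC was not called without hNMP-D4 replicate 2 or 3 or hNMP-D3 replicate 1, 2 or 3 (adjusted p = 0.0586, 0.0504, 0.0925, 0.105 and 0.104). The count of 13 became 7 and 8 without hNMP-D3 replicate 1 or 3, and that of 2 lower ones became 1 without hNMP-D4 replicate 2 or 3 or hNMP-D3 replicate 1, 2 or 3.

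Of 10 tested WNT ligands 5 were higher and 0 lower (median 0.84). For the lower direction the count was also 0 at an unadjusted p under 0.05 and by DESeq2 and limma voom. WNT6, a ligand of ectoderm, had 2.34, 5.098 and 5.66 CPM in hNMP-D4 and 0.0616, 0.203 and 0.0411 CPM in hNMP-D3 (log2 fold change 5.49, SE 0.551, adjusted p = 8.82e-05), its hNMP-D3 values being 1 to 3 counts a library. WNT7B had 7.07, 13.8 and 8.49 CPM in hNMP-D4 and 1.42, 0.878 and 0.863 CPM in hNMP-D3 (log2 fold change 3.23, SE 0.311, adjusted p = 7.28e-05). WNT8A was highest in hNMP-D4 replicate 1 while WNT6 was lowest there, so the ligands did not share 1 order over the libraries. Among 22 tested WNT receptors and modulators 8 were higher and 4 lower (median 0.18), the 4 lower ones becoming 1 without hNMP-D3 replicate 1, 2 or 3. The frizzled receptor FZD10 had 87.7, 55.3 and 31.6 CPM in hNMP-D4 and 2.403, 2.703 and 1.23 CPM in hNMP-D3 (log2 fold change 4.84, SE 0.537, adjusted p = 0.00221). FZD7, another frizzled receptor, had 425, 481 and 417 CPM in hNMP-D4 and 561, 484 and 539.9 CPM in hNMP-D3 (log2 fold change -0.26, SE 0.0824, adjusted p = 0.0344). FZD7 was not called without hNMP-D4 replicate 1 or hNMP-D3 replicate 1 or 3 (adjusted p = 0.0585, 0.151 and 0.117). FZD10 was thus far above hNMP-D3 in all 3 libraries, and FZD7 only a little below.

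**Figure D4:**
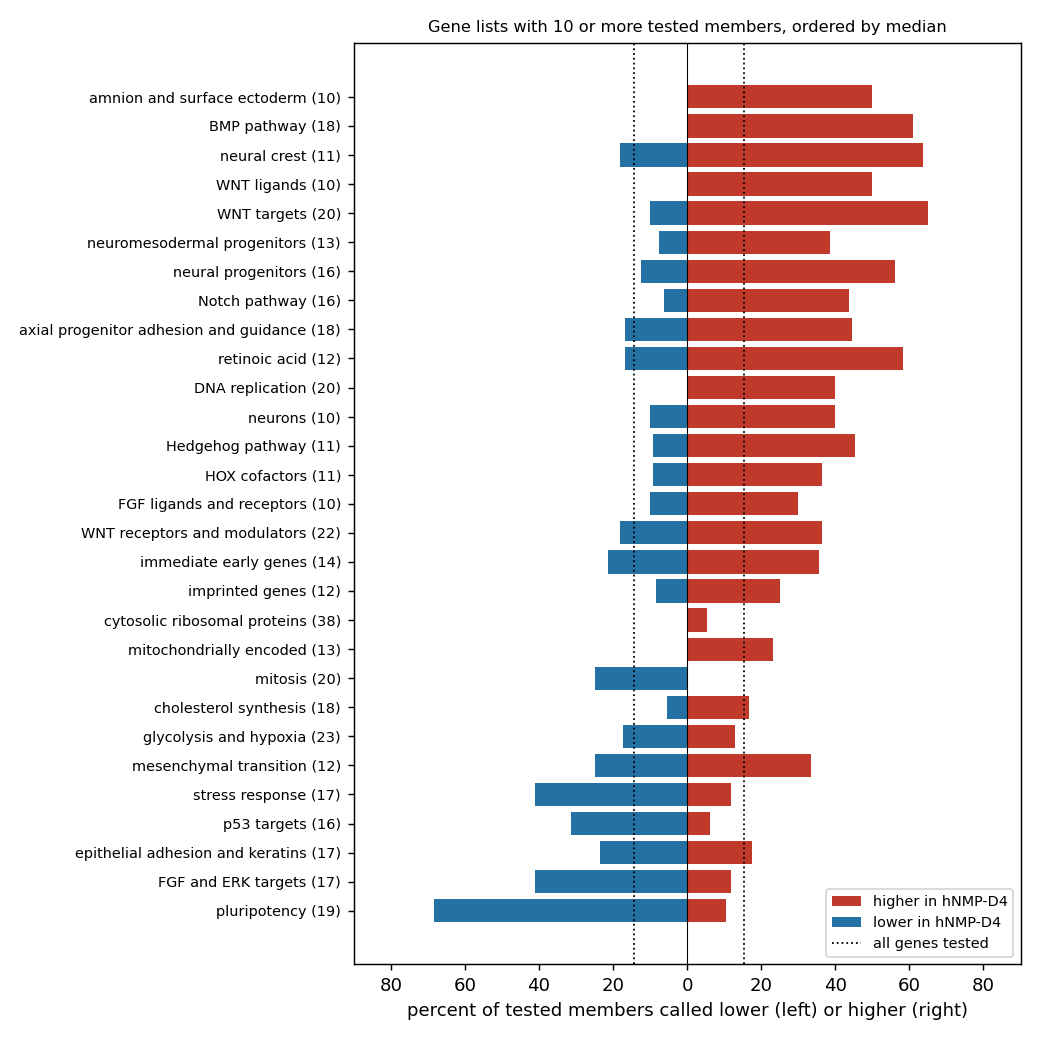
Percent of tested members called lower (blue, to the left) or higher (red, to the right) in hNMP-D4, for the 29 gene lists with 10 or more tested members (number after each name), ordered by median log2 fold change. Dotted lines mark the shares over all 17457 genes, 14.3% lower and 15.4% higher, and WNT targets had 65.0% higher and pluripotency genes 68.4% lower.

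Most tested genes of the BMP pathway were higher in hNMP-D4, with the BMP receptor inhibitor Dorsomorphin in the medium on both days. Of 18 tested members 11 were higher and 0 lower (median log2 fold change 1.02), the 0 becoming 1 without hNMP-D4 replicate 1. No member was lower at an unadjusted p under 0.05 by edgeR, or by DESeq2 or limma voom. ID1, a direct BMP target that blocks differentiation factors, had 38.4, 45.4 and 40.8 CPM in hNMP-D4 and 10.2, 11.1 and 11.01 CPM in hNMP-D3 (log2 fold change 1.95, SE 0.109, adjusted p = 3.33e-06). SMAD6, an inhibitory SMAD induced by BMP, had 9.61, 9.84 and 6.82 CPM in hNMP-D4 and 2.03, 1.62 and 1.56 CPM in hNMP-D3 (log2 fold change 2.33, SE 0.213, adjusted p = 3.55e-05). The ligand BMP5 had 2.64, 2.17 and 3.59 CPM in hNMP-D4 and 0.616, 0.2703 and 0.411 CPM in hNMP-D3 (log2 fold change 2.68, SE 0.342, adjusted p = 0.000282). For ID1 the 3 hNMP-D4 libraries lay close together and far from hNMP-D3. Of 7 tested genes of the NODAL pathway, which SB431542 blocks at the receptor, 2 were higher and 3 lower (median -0.04). These are 28.6% and 42.9%, beside 15.4% and 14.3% over all genes. TDGF1, the NODAL co-receptor, had 213, 238 and 229.6 CPM in hNMP-D4 and 374, 387 and 375 CPM in hNMP-D3 (log2 fold change -0.74, SE 0.0709, adjusted p = 4.80e-05).

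Among FGF and ERK targets the balance ran the other way, and of 17 members, all tested, 2 were higher and 7 lower (median log2 fold change -0.19). DUSP4, a phosphatase that turns ERK off, had 41.1, 25.9 and 39.7 CPM in hNMP-D4 and 73.9, 67.3 and 72.0 CPM in hNMP-D3 (log2 fold change -0.998, SE 0.154, adjusted p = 0.00157). FOSL1, an AP-1 subunit, had 55.1, 48.1 and 56.1 CPM in hNMP-D4 and 88.7, 79.4 and 86.7 CPM in hNMP-D3 (log2 fold change -0.68, SE 0.0871, adjusted p = 0.000297). CNTFR, a cytokine receptor subunit, was one of the higher members, with 69.4, 50.9 and 31.0 CPM in hNMP-D4 and 9.49, 7.91 and 8.96 CPM in hNMP-D3 (log2 fold change 2.52, SE 0.296, adjusted p = 0.00119). EGR1, the other higher member, had 10.9, 9.54 and 12.3 CPM in hNMP-D4 and 8.38, 7.5 and 6.49 CPM in hNMP-D3 (log2 fold change 0.56, SE 0.155, adjusted p = 0.0198). EGR1 was not called without hNMP-D3 replicate 2 or 3 (adjusted p = 0.0683 and 0.1055). DUSP6, SPRY2, SPRY4, SPRED2, ETV4 and IL17RD were among the members not called. The 7 lower members became 4 without hNMP-D3 replicate 3, and the 2 higher ones 1 without hNMP-D3 replicate 2 or 3. Of 10 tested FGF ligands and receptors 3 were higher and 1 lower (median 0.18), the 3 becoming 5 without hNMP-D4 replicate 3 and the 1 becoming 2 without hNMP-D4 replicate 1 or 3. The receptor FGFR3 had 137, 203 and 150.2 CPM in hNMP-D4 and 32.6, 22.6 and 28.4 CPM in hNMP-D3 (log2 fold change 2.55, SE 0.181, adjusted p = 5.39e-05). FGF18, a ligand, had 9.85, 10.7 and 9.72 CPM in hNMP-D4 and 1.66, 1.22 and 1.32 CPM in hNMP-D3 (log2 fold change 2.85, SE 0.183, adjusted p = 5.40e-06). Both were several-fold higher in every hNMP-D4 library.

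Of 12 tested genes of retinoic acid handling and reception 7 were higher and 2 lower (median log2 fold change 0.45), the 7 becoming 4 without hNMP-D3 replicate 1, 2 or 3 and the 2 becoming 1 without hNMP-D4 replicate 2 or hNMP-D3 replicate 1, 2 or 3. CRABP2, which carries retinoic acid to its nuclear receptors, had 449.7, 447 and 359 CPM in hNMP-D4 and 127, 107 and 126 CPM in hNMP-D3 (log2 fold change 1.80, SE 0.105, adjusted p = 4.07e-06). RARG, a retinoic acid receptor, had 36.9, 39.7 and 24.3 CPM in hNMP-D4 and 18.2, 15.3 and 19.6 CPM in hNMP-D3 (log2 fold change 0.92, SE 0.181, adjusted p = 0.00483). STRA6, the retinol transporter, had 36.8, 19.5 and 9.09 CPM in hNMP-D4 and 5.92, 5.41 and 5.96 CPM in hNMP-D3 (log2 fold change 1.91, SE 0.529, adjusted p = 0.0447). STRA6 was not called without hNMP-D4 replicate 2 or hNMP-D3 replicate 1, 2 or 3 (adjusted p = 0.0626, 0.128, 0.0862 and 0.115). Of these CRABP2 varied less over the hNMP-D4 libraries than STRA6 (SD of log2 CPM 0.184 and 1.00). RDH10, which makes retinaldehyde, was lower, with 11.1, 9.89 and 10.3 CPM in hNMP-D4 and 21.4, 20.5 and 19.97 CPM in hNMP-D3 (log2 fold change -0.99, SE 0.112, adjusted p = 0.0001404). ALDH1A2, which turns retinaldehyde into retinoic acid, was at 0.0995 to 0.199 CPM in hNMP-D4 and 0.288 to 0.743 CPM in hNMP-D3 and was not tested.

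Notch pathway genes gave 7 higher and 1 lower of 16 tested (median 0.49), the 1 becoming 2 without hNMP-D4 replicate 3. These are 43.8% and 6.25%, beside 15.4% and 14.3% over all genes. JAG2, a Notch ligand, had 12.3, 13.5 and 12.7 CPM in hNMP-D4 and 6.28, 4.19 and 5.14 CPM in hNMP-D3 (log2 fold change 1.30, SE 0.161, adjusted p = 0.000236). Of 11 tested Hedgehog pathway genes 5 were higher (45.5%) and 1 lower (9.09%), with a median of 0.30. The 5 became 3 without hNMP-D4 replicate 1 or 2 or hNMP-D3 replicate 1, 2 or 3. The 1 became 0 without hNMP-D3 replicate 1 or 2. PTCH1, the Hedgehog receptor and a target of the pathway, had 80.7, 87.4 and 87.95 CPM in hNMP-D4 and 52.2, 54.7 and 48.9 CPM in hNMP-D3 (log2 fold change 0.72, SE 0.07995, adjusted p = 0.000121).

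Pluripotency genes were lower but still present. Of 19 members, all tested, 2 were higher and 13 lower (median log2 fold change -0.54). NANOG had 10.5, 8.38 and 7.49 CPM in hNMP-D4 and 18.4, 20.95 and 17.9 CPM in hNMP-D3 (log2 fold change -1.12, SE 0.147, adjusted p = 0.000343). POU5F1 had 49.4, 38.1 and 43.9 CPM in hNMP-D4 and 63.3, 63.7 and 63.7 CPM in hNMP-D3 (log2 fold change -0.54, SE 0.0982, adjusted p = 0.00243). POU5F1 has pseudogenes of near-identical sequence, so its level is uncertain where the counting could split reads. UTF1, a chromatin factor of stem cells, had 3.29, 2.83 and 2.55 CPM in hNMP-D4 and 8.44, 7.03 and 9.698 CPM in hNMP-D3 (log2 fold change -1.55, SE 0.186, adjusted p = 0.000195). The SD of log2 CPM in hNMP-D4 and hNMP-D3 was 0.245 and 0.122 for NANOG and 0.188 and 0.00556 for POU5F1. For UTF1 it was 0.178 and 0.230. LIN28A, an RNA-binding protein that blocks let-7 maturation, was higher, with 1767, 1859 and 1787 CPM in hNMP-D4 and 1336, 1257 and 1336 CPM in hNMP-D3 (log2 fold change 0.46, SE 0.06199, adjusted p = 0.0003899), and so was the Krüppel-like factor KLF4 (log2 fold change 0.54, SE 0.182, adjusted p = 0.0445). KLF4 was not called without hNMP-D4 replicate 2 or 3 or hNMP-D3 replicate 1, 2 or 3 (adjusted p = 0.107, 0.112, 0.131, 0.154 and 0.0854). The 2 higher members became 1 without hNMP-D4 replicate 2 or hNMP-D3 replicate 1, 2 or 3. OTX2, a factor of epiblast and head, had 6.37, 16.5 and 22.99 CPM in hNMP-D4 and 30.1, 27.97 and 33.5 CPM in hNMP-D3 (log2 fold change -0.99, adjusted p = 0.148). OTX2 was called without hNMP-D4 replicate 1 (adjusted p = 0.005195). Its groups did not overlap, and replicate 1 was the lowest library.

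Neural progenitor genes included 9 higher and 2 lower of 16 tested (median log2 fold change 0.53), the 9 becoming 5 and 4 without hNMP-D3 replicate 2 or 3. SOX1, an early neural plate factor, had 35.3, 45.8 and 25.03 CPM in hNMP-D4 and 8.07, 4.797 and 7.56 CPM in hNMP-D3 (log2 fold change 2.36, SE 0.261, adjusted p = 0.0004697). ZIC1, a zinc finger factor of the dorsal neural plate, had 3.88, 3.68 and 4.702 CPM in hNMP-D4 and 0.431, 0.541 and 0.575 CPM in hNMP-D3 (log2 fold change 2.96, SE 0.256, adjusted p = 2.78e-05). Its relative ZIC2 was lower, with 211, 206 and 202 CPM in hNMP-D4 and 277, 287 and 288 CPM in hNMP-D3 (log2 fold change -0.46, SE 0.0664, adjusted p = 0.000605), as was ZIC5 (log2 fold change -0.96, SE 0.0993, adjusted p = 7.99e-05). ZIC1 thus moved against ZIC2 and ZIC5. PAX6, a factor of more mature neural progenitors, was at 0 to 0.404 CPM in hNMP-D4 and 0.0676 to 0.246 CPM in hNMP-D3 and was not tested. In the forebrain and midbrain list, with 3 of 9 tested genes higher and 1 lower (median 0.06), OTX1 was the lower one (log2 fold change -2.13, SE 0.48, adjusted p = 0.00731) and LMX1B led the higher ones. OTX1 was not called without hNMP-D3 replicate 3 (adjusted p = 0.0633). The count of 1 lower became 2 without hNMP-D4 replicate 1 and 0 without hNMP-D3 replicate 3.

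Some markers of neural crest and of surface ectoderm, cell types that the dish could also hold, were higher on the same day, while others were lower or did not pass the test. All 11 neural crest genes were tested, of which 7 were higher and 2 lower (median log2 fold change 0.87). TFAP2A, a factor of neural border and surface ectoderm, had 3.04, 5.25 and 5.42 CPM in hNMP-D4 and 0.308, 0.541 and 0.206 CPM in hNMP-D3 (log2 fold change 3.77, SE 0.374, adjusted p = 6.01e-05). MSX1, a BMP target of the neural border, had 8.61, 3.48 and 3.31 CPM in hNMP-D4 and 1.17, 1.35 and 1.19 CPM in hNMP-D3 (log2 fold change 2.05, SE 0.399, adjusted p = 0.00503). FOXD3, a factor of both stem cells and crest, was lower, with 0.299, 0.959 and 1.59 CPM in hNMP-D4 and 3.82, 3.18 and 3.29 CPM in hNMP-D3 (log2 fold change -1.81, SE 0.409, adjusted p = 0.00917). The crest marker SOX10 had 2.04, 2.88 and 3.35 CPM in hNMP-D4 and 2.28, 1.82 and 2.22 CPM in hNMP-D3 (log2 fold change 0.39, adjusted p = 0.259), and the 2 days overlapped. The summed level of the list was 143, 139 and 149 CPM in hNMP-D4 and 107, 106 and 109 CPM in hNMP-D3.

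Of 10 tested amnion and surface ectoderm genes 5 were higher and 0 lower (median log2 fold change 1.79), among them WNT6 and TFAP2A, and the 0 became 1 without hNMP-D4 replicate 3. At an unadjusted p under 0.05 edgeR gave 1 lower, and DESeq2 and limma voom called 0 and 1. DLX5, a distal-less homeobox gene, had 4.03, 4.85 and 1.91 CPM in hNMP-D4 and 0.308, 0.2703 and 0.0822 CPM in hNMP-D3 (log2 fold change 4.10, SE 0.507, adjusted p = 0.000308). The summed level of the list was 131, 244 and 268 CPM in hNMP-D4 and 136, 96.8 and 123 CPM in hNMP-D3, so replicate 1 lay inside the hNMP-D3 range and replicates 2 and 3 above it. Of the defining epidermal markers, KRT5 was at 0 to 0.0505 CPM in hNMP-D4 and 0 CPM in hNMP-D3, KRT14 at 0 to 0.0797 CPM in hNMP-D4 and 0 CPM in hNMP-D3 and TP63 at 0 to 0.0399 CPM in hNMP-D4 and 0.0616 to 0.164 CPM in hNMP-D3. GATA3, an early surface ectoderm and trophoblast factor, had 0.249, 1.06 and 1.83 CPM in hNMP-D4 and 0.555, 0.135 and 0.164 CPM in hNMP-D3 (log2 fold change 1.95, adjusted p = 0.0821). GATA3 was called without hNMP-D4 replicate 1 (adjusted p = 0.00321). The part of such cells in the other results was not tested.

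Mesodermal markers gave little. Of 16 presomitic and paraxial mesoderm genes 5 were tested and 1 was higher, the 1 becoming 2 without hNMP-D4 replicate 1. The 1 gene was FOXC1, a forkhead factor, with 4.23, 4.29 and 3.23 CPM in hNMP-D4 and 1.23, 0.811 and 0.863 CPM in hNMP-D3 (log2 fold change 2.01, SE 0.253, adjusted p = 0.000262). TBX6, which directs axial progenitors to the mesoderm, had 1.44, 1.57 and 0.757 CPM in hNMP-D4 and 1.79, 1.42 and 1.89 CPM in hNMP-D3 (log2 fold change -0.47, adjusted p = 0.29). MSGN1, a presomitic mesoderm factor, was at 0 to 0.0505 CPM in hNMP-D4 and 0 CPM in hNMP-D3. Of 5 tested primitive streak genes 2 were higher and 0 lower (median 0.14). Of lower members, edgeR gave 0 at an unadjusted p under 0.05, DESeq2 0 and limma voom 1. MIXL1, a mesendoderm homeobox gene, had 3.38, 5.86 and 6.93 CPM in hNMP-D4 and 1.66, 1.22 and 1.56 CPM in hNMP-D3 (log2 fold change 1.86, SE 0.284, adjusted p = 0.000876), and GATA6, a factor of endoderm and mesoderm, had 0.647, 1.36 and 1.12 CPM in hNMP-D4 and 0.123, 0 and 0.0411 CPM in hNMP-D3, which is 13 to 28 counts a library in hNMP-D4 and 0 to 2 in hNMP-D3. Of 4 tested lateral and cardiac mesoderm genes 1 was higher and 1 lower (median 0.31), beside 15.4% and 14.3% over all genes. The higher one was the ligand BMP4 (log2 fold change 0.45, SE 0.137, adjusted p = 0.0311). BMP4 was not called without hNMP-D4 replicate 2 or hNMP-D3 replicate 1, 2 or 3 (adjusted p = 0.131, 0.0554, 0.124 and 0.0789). KDR, a VEGF receptor that marks lateral mesoderm and is also made by stem cells, was lower, with 45.7, 58.4 and 72.7 CPM in hNMP-D4 and 222, 218 and 240.2 CPM in hNMP-D3 (log2 fold change -1.94, SE 0.148, adjusted p = 4.34e-05).

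Genes for DNA replication were higher in part, and the mitotic genes that passed the test were lower. Of 20 DNA replication genes, all tested, 8 were higher and 0 lower (median log2 fold change 0.34). Of the lower direction, edgeR gave 0 at an unadjusted p under 0.05, DESeq2 called 0 and limma voom 1. MCM3, a subunit of the replicative helicase, had 305, 277 and 208 CPM in hNMP-D4 and 173, 172 and 163 CPM in hNMP-D3 (log2 fold change 0.64, SE 0.123, adjusted p = 0.00405). The summed level of the list was 2965, 2552 and 2103 CPM in hNMP-D4 and 1932 to 2052 CPM in hNMP-D3, with replicate 3 nearest to hNMP-D3. The count of 8 became 3 without hNMP-D4 replicate 2 and 2, 3 and 2 without hNMP-D3 replicate 1, 2 or 3. Of 20 mitosis genes 0 were higher and 5 lower (median -0.02), the 5 becoming 3 without hNMP-D4 replicate 2 or hNMP-D3 replicate 1, 2 or 3. In the higher direction edgeR gave 1 member at an unadjusted p under 0.05, and DESeq2 and limma voom called 1 each. BUB1, a spindle checkpoint kinase, had 158, 204 and 247 CPM in hNMP-D4 and 387, 381 and 407 CPM in hNMP-D3 (log2 fold change -0.95, SE 0.14, adjusted p = 0.00143). MKI67, a marker of cycling cells, had 317, 324 and 153 CPM in hNMP-D4 and 178, 205 and 202 CPM in hNMP-D3 (log2 fold change 0.44, adjusted p = 0.327). MKI67 was called without hNMP-D4 replicate 3 (adjusted p = 1.02e-06). The mitosis sum was 3292, 3133 and 2285 CPM in hNMP-D4 and 2989, 3106 and 3215 CPM in hNMP-D3, with replicate 3 below all other libraries, and without replicate 3 there were 5 higher and 5 lower members. In MKI67 and the mitosis sum hNMP-D4 replicate 3 thus stood apart from replicates 1 and 2, whereas in BUB1 and the replication sum replicate 2 lay between the others.

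**Figure D5:**
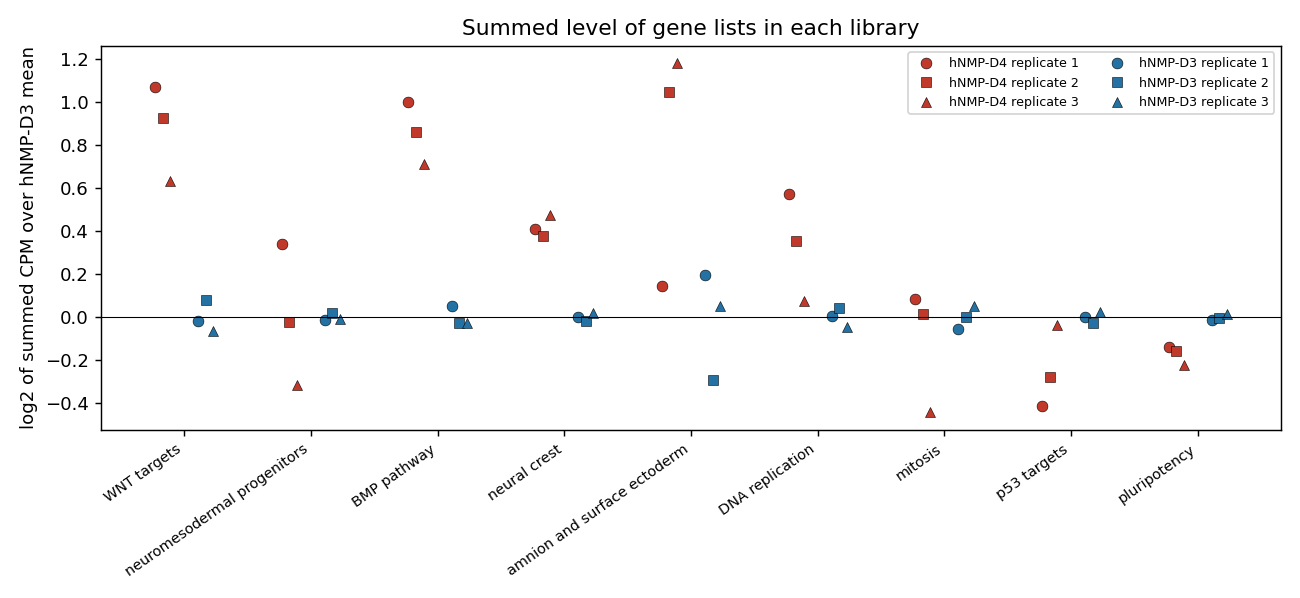
Summed CPM of 9 gene lists in each library, as log2 over the hNMP-D3 mean, with hNMP-D4 (red) left of hNMP-D3 (blue) and 1 marker shape per replicate. WNT targets and BMP pathway genes lie above hNMP-D3 in all 3 hNMP-D4 libraries, and the neuromesodermal progenitor list runs over both sides of hNMP-D3.

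Neither cadherin of the epithelial to mesenchymal switch passed the test, and both varied within hNMP-D4. CDH1 (E-cadherin) had 368, 513 and 632 CPM in hNMP-D4 and 455, 428 and 435 CPM in hNMP-D3 (log2 fold change 0.20, adjusted p = 0.434). CDH1 was called without hNMP-D4 replicate 1 (adjusted p = 0.00605). CDH2 (N-cadherin) had 119, 73.9 and 73.01 CPM in hNMP-D4 and 78.9, 87.6 and 80.1 CPM in hNMP-D3 (log2 fold change 0.11, adjusted p = 0.709). In hNMP-D4 replicate 1, CDH1 was below and CDH2 above every hNMP-D3 library, and in replicates 2 and 3 it was the other way round. Of 17 epithelial genes, all tested, 3 were higher and 4 lower (median -0.19), beside shares of 15.4% and 14.3% over all genes. The 3 became 6 without hNMP-D4 replicate 1 and the 4 became 2 without hNMP-D4 replicate 2 or hNMP-D3 replicate 1 or 3. Of 12 tested genes of mesenchymal transition 4 were higher and 3 lower (median -0.09), the 4 becoming 2 without hNMP-D3 replicate 3 and the 3 becoming 6 without hNMP-D4 replicate 1. TWIST1, a mesenchymal and crest factor, had 16.7, 14.8 and 23.4 CPM in hNMP-D4 and 6.47, 5.41 and 5.59 CPM in hNMP-D3 (log2 fold change 1.66, SE 0.183, adjusted p = 0.000118). FN1, the matrix protein fibronectin, had 141, 171 and 186 CPM in hNMP-D4 and 324, 311 and 328 CPM in hNMP-D3 (log2 fold change -0.95, SE 0.0979, adjusted p = 7.75e-05). These 2 genes of the same list moved in opposite directions in every hNMP-D4 library.

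Of 18 tested genes of axial progenitor adhesion and guidance 8 were higher and 3 lower (median 0.46), the 8 becoming 5 without hNMP-D3 replicate 3 and the 3 becoming 1 without hNMP-D4 replicate 2 or hNMP-D3 replicate 1 or 3. EFNA1, an ephrin that signals by cell contact, had 3.63, 5.703 and 2.91 CPM in hNMP-D4 and 0.555, 0.676 and 0.575 CPM in hNMP-D3 (log2 fold change 2.75, SE 0.321, adjusted p = 0.000158). CDH7, a cadherin, was also higher (log2 fold change 1.99, SE 0.454, adjusted p = 0.00854), and the repellent SEMA3A was lower (log2 fold change -0.69, SE 0.116, adjusted p = 0.00156).

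Among called genes with at least 5 CPM in each hNMP-D4 library and no overlap, the largest rises were those of DLX3, HAPLN1, LMX1B, TMPRSS13, HPGD, FZD10, MT2A, BAHCC1, WNT8A and C1QTNF1, with log2 fold changes between 6.29 and 3.84. DLX3, a homeobox factor of surface ectoderm and placenta (chr17:49990005-49995224), had 10.8, 17.9 and 11.2 CPM in hNMP-D4 and 0.308, 0.0676 and 0.123 CPM in hNMP-D3 (log2 fold change 6.29, SE 0.382, adjusted p = 5.40e-06). HAPLN1, a link protein of the extracellular matrix, had 8.36, 12.97 and 10.6 CPM in hNMP-D4 and 0.308, 0 and 0.164 CPM in hNMP-D3 (log2 fold change 5.98, SE 0.41, adjusted p = 1.22e-05). LMX1B, a LIM-homeobox factor of the dorsal neural tube and midbrain, had 8.51, 13.5 and 9.37 CPM in hNMP-D4 and 0.616, 0.0676 and 0.0822 CPM in hNMP-D3 (log2 fold change 5.42, SE 0.491, adjusted p = 0.000117). In these 3 genes replicate 2 was the highest hNMP-D4 library. Their hNMP-D3 values were 1 to 5 counts a library for DLX3, 0 to 5 for HAPLN1 and 1 to 10 for LMX1B. TMPRSS13 had 4 to 7 counts a library in hNMP-D3. The size of these 4 rises is therefore uncertain. HPGD, which inactivates prostaglandins, had 156, 213 and 151 CPM in hNMP-D4 and 6.84, 4.66 and 5.01 CPM in hNMP-D3 (log2 fold change 4.98, SE 0.188, adjusted p = 2.39e-06). MT2A, a metal-binding metallothionein, had 59.1, 47.4 and 13.95 CPM in hNMP-D4 and 2.095, 1.76 and 0.616 CPM in hNMP-D3 (log2 fold change 4.84, SE 0.788, adjusted p = 0.00952), and BAHCC1, a chromatin reader, had 44.8, 29.5 and 16.5 CPM in hNMP-D4 and 1.73, 1.96 and 1.56 CPM in hNMP-D3 (log2 fold change 4.12, SE 0.426, adjusted p = 0.0007995). MT2A and BAHCC1 instead followed the order of CDX2. The calls for all 10 genes held without any one library. These genes were picked by call, size and lack of overlap in the same libraries, so this is no separate support.

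The largest falls among called genes with at least 5 CPM in each hNMP-D3 library and no overlap were those of IDO1, BDNF, MGAT4C, LINC00678, COL8A1, AK4, LCK, HHLA1, GRPR and ANOS1, with log2 fold changes between -3.32 and -2.21. IDO1, which degrades tryptophan, had 2.19, 2.22 and 4.66 CPM in hNMP-D4 and 29.8, 32.8 and 29.7 CPM in hNMP-D3 (log2 fold change -3.32, SE 0.254, adjusted p = 4.39e-05). BDNF, a neurotrophin, had 0.995, 1.06 and 1.59 CPM in hNMP-D4 and 8.07, 8.58 and 8.79 CPM in hNMP-D3 (log2 fold change -2.78, SE 0.211, adjusted p = 1.26e-05). LINC00678, a long noncoding RNA gene on chromosome 11 (chr11:27617626-27634627), near BDNF (chr11:27654893-27722058), had 12.5, 17.01 and 19.9 CPM in hNMP-D4 and 100.4, 112 and 110.0 CPM in hNMP-D3 (log2 fold change -2.70, SE 0.145, adjusted p = 4.60e-06). These 2 neighbours were both several-fold lower in every hNMP-D4 library. COL8A1, a short-chain collagen, had 0.846, 1.21 and 2.83 CPM in hNMP-D4 and 8.07, 8.45 and 9.58 CPM in hNMP-D3 (log2 fold change -2.38, SE 0.353, adjusted p = 0.00142). ANOS1, a secreted protein of the extracellular matrix, had 10.6, 12.5 and 13.8 CPM in hNMP-D4 and 51.8, 59.6 and 59.4 CPM in hNMP-D3 (log2 fold change -2.21, SE 0.117, adjusted p = 2.39e-06). The calls for all 10 genes held without any one library, which for genes picked in this way is no separate support. In the 5 genes given here replicate 3 was the hNMP-D4 library nearest to hNMP-D3.

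Among genes with a mean of at least 10 CPM, the 10 that varied most between the hNMP-D4 libraries included CDX2, MT2A and STRA6 from above, and the values that follow are a description with no test. MN1, a transcriptional coregulator, had 100.1, 82.7 and 26.7 CPM in hNMP-D4 and 9.74, 10.7 and 9.95 CPM in hNMP-D3. OLIG3, a dorsal neural tube factor, had 25.6, 24.1 and 5.62 CPM in hNMP-D4 and 4.44, 2.77 and 3.08 CPM in hNMP-D3. In these genes hNMP-D4 replicate 3 lay nearest to hNMP-D3. The interferon-regulated gene MX1, an antiviral GTPase, ran in the other order, with 9.26, 17.4 and 41.5 CPM in hNMP-D4 and 24.5, 19.5 and 21.5 CPM in hNMP-D3. APOBEC3B, a cytidine deaminase, had 8.41, 20.2 and 58.7 CPM in hNMP-D4 and 35.4, 31.3 and 38.1 CPM in hNMP-D3, and like MX1 it was highest in hNMP-D4 replicate 3. Both overlapped hNMP-D3. The other 3 of the 10, CUTA and 2 pseudoautosomal genes, lie in regions that the assembly holds more than once, so their levels are uncertain and none is given.

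The stages before and after give the course of some of these genes. The paper states that cells spent the first day in mTeSR. At day 4 they were dissociated and re-plated in NeuDet medium, which also held FGF8. Time and culture change therefore cannot be told apart in the step to NeuDet-D1. In the scaling of the 48-library table, mean CDX2 over hNMP-D1, hNMP-D2, hNMP-D3, hNMP-D4 and NeuDet-D1 was 0.0176, 1.14, 4.49, 31.5 and 372 CPM. SP5 was at 0.135, 44.5, 56.7, 120.1 and 386 CPM, and TBXT at 0.238, 0.887, 0.496, 4.14 and 8.07 CPM. In CPM, the largest step of CDX2 came after day 4. HOXB9 was at 0, 0, 0.0817, 0.454 and 256 CPM. NANOG was at 98.4, 22.8, 19.7, 8.97 and 1.07 CPM, SOX2 at 376, 234, 394, 247 and 148 CPM and CDH1 at 223, 368, 454, 516 and 31.99 CPM. OTX2 was at 78.1, 10.9, 31.55, 15.6 and 0.158 CPM. By these means CDH1 was highest on day 4 and lowest at NeuDet-D1. SOX2 and OTX2 had day 3 levels above those of days 2 and 4. The CDH1 libraries ran from 374 to 648 CPM in hNMP-D4 and from 440 to 470 CPM in hNMP-D3, so these days overlapped. These are means of 3 libraries a stage, given as a description with no test.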

How the data were processed

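RNA-seq libraries of hNMP-D4 and hNMP-D3 (3 each) were analysed as columns of a 48-library table of 60603 genes. The authors deposited raw counts per gene, not normalized, which they made by trimming reads with fastp, aligning them to hg38 with HISAT2 (2.1.0) and counting with featureCounts (1.5.3). The annotation release and strand setting are not given in the sources used here. Counts cover 14970578 to 25141664 per library, and no 2 libraries of the same day agreed within sampling noise. A second count table, of the motor neuron experiment, was not used. Symbols came from GENCODE (release 44) and matched 42039 IDs (69.4%).

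Genes were filtered with filterByExpr and tested in a fit of the 6 libraries by edgeR (4.0.16, R 4.3.3) with TMM scaling and the robust quasi-likelihood test, at an adjusted p of 0.05 or less. For spread, 2 counts were added as a prior before taking log2 CPM. Alternatives were RLE and total-count scaling, no filter, a 1 CPM filter, DESeq2 (1.42.0), limma voom with library weights (3.58.1), glmTreat against 2-fold, fits of 15 and 48 libraries, a replicate block and leaving out each library. On data simulated for this comparison (17148 genes), edgeR recovered 56.7% of 1.5-fold, 80.6% of 2-fold and 98.5% of 4-fold changes and called 21 of 16948 unchanged genes. The simulation gave both days the same spread, drew genes independently and changed only genes above a minimum mean count. It did not hold the wider spread of hNMP-D4, so these rates may not apply to the real libraries.

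The text names 22 key genes, the 10 largest changes each way among called genes without overlap and with at least 5 CPM in every library of the higher group, up to 4 called members each way of a described list, with uncalled members given by value, and the 10 genes most variable within hNMP-D4 with a mean of at least 10 CPM. Of the key genes, 1 is not reported here. The members and the 38 lists were chosen with earlier results of these data known. Tables were made in Python (3.11.15; pandas 2.3.3) and figures in matplotlib (3.10.9).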

Additional observations from a re-analysis of the deposited data

How the results depend on the processing

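Leaving out each library in turn, genes called numbered 1568 to 3621 higher and 1470 to 3637 lower, fewest without hNMP-D3 replicate 3 and most without hNMP-D4 replicate 3. Over the same settings the members called were 10 to 14 lower pluripotency genes, 2 to 7 higher neuromesodermal progenitor genes, 7 to 13 WNT targets, 5 to 7 WNT ligands, 8 to 12 BMP pathway, 4 to 10 neural progenitor, 5 to 7 neural crest, 4 to 7 amnion and surface ectoderm, 4 to 7 retinoic acid, 2 to 12 DNA replication and 5 to 8 Notch pathway genes higher, and 4 to 10 FGF and ERK targets lower. Spread was 0.528 to 0.611 in hNMP-D4 and 0.472 to 0.542 in hNMP-D3. Against a 2-fold threshold (glmTreat), which asks for a larger change, 223 genes were higher and 67 lower, and the list counts were 0 for pluripotency, FGF and ERK targets, DNA replication and Notch, 1 for retinoic acid, 2 for neuromesodermal progenitors, neural progenitors and neural crest, and 3 for WNT targets, WNT ligands and BMP. The 48-library fit called 4151 higher and 3916 lower, with 9 neuromesodermal progenitor and 8 amnion and surface ectoderm genes higher, and the 15-library fit called 8 of each; the cause was not tested. Spread with a prior count of 0.5 was 0.718 in hNMP-D4 and 0.715 in hNMP-D3, and over genes with a mean of at least 10 CPM 0.289 and 0.170. Other settings left the counts of all genes within 1.5 times. DESeq2 called 2439 higher and 2463 lower, RLE scaling 2584 and 2596, and total-count scaling 2887 and 2305. Libraries with the same number in both groups did not deviate together (correlations -0.009, -0.063 and 0.029), so numbers were not taken as pairs. With a replicate block 2412 genes were higher and 2203 lower, and 8 neuromesodermal progenitor genes were higher. No named gene that was called changed direction under these settings. Of 186 named genes called, glmTreat lost 137, leaving out hNMP-D3 replicate 3 lost 52 and DESeq2 lost 8. Only 3 libraries a day limit the smallest change seen, and levels under about 1 CPM rest on few counts.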

Other observations

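Gene groups outside the caudal, neural and signalling programmes were counted in the same way. Of 17 tested stress response genes 2 were higher and 7 lower (15.4% and 14.3% over all genes, median log2 fold change -0.16 against 0.02), the 2 becoming 1 without hNMP-D4 replicate 3 or hNMP-D3 replicate 1, 2 or 3. The chaperone gene HSPH1 had 142, 132 and 203 CPM in hNMP-D4 and 351, 366 and 348 CPM in hNMP-D3 (log2 fold change -1.16, SE 0.147, adjusted p = 0.0006999 by edgeR). ASNS, which makes asparagine and responds to amino acid shortage, had 8.56, 8.53 and 9.84 CPM in hNMP-D4 and 14.1, 15.3 and 15.8 CPM in hNMP-D3 (log2 fold change -0.74, SE 0.126, adjusted p = 0.00157). Of 16 p53 targets, all tested, 1 was higher and 5 lower (median -0.18), and the 5 became 3, 2 and 9 without hNMP-D4 replicate 1, 2 or 3 and 2 without hNMP-D3 replicate 1, 2 or 3. The count of 1 higher became 0 without hNMP-D4 replicate 2 or hNMP-D3 replicate 1, 2 or 3. CDKN1A, the p21 inhibitor of the cell cycle, had 162, 199.5 and 232 CPM in hNMP-D4 and 304, 265 and 331 CPM in hNMP-D3 (log2 fold change -0.60, SE 0.1297, adjusted p = 0.007901), and replicate 1 was the hNMP-D4 library furthest from hNMP-D3. Of 23 tested glycolysis and hypoxia genes 3 were higher (13.0%) and 4 lower (17.4%), with a median of -0.06. The higher ones were PFKL, ENO1 and NDRG1. The summed level of the list was 11613, 10704 and 10726 CPM in hNMP-D4 and 9853, 9643 and 10125 CPM in hNMP-D3. HK2, a hexokinase among the lower ones, was at 83.3, 84.2 and 95.8 CPM in hNMP-D4 and 165, 163 and 165 CPM in hNMP-D3 (log2 fold change -0.91, SE 0.07795, adjusted p = 2.74e-05). The count of 4 became 2 and 7 without hNMP-D4 replicate 2 or 3 and 2 without hNMP-D3 replicate 1.

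The counts that follow stand beside 15.4% higher and 14.3% lower over all genes tested. Of 10 tested neuronal genes 4 were higher and 1 lower (median 0.33), the 1 becoming 0 and 3 without hNMP-D4 replicate 2 or 3 and 0 without hNMP-D3 replicate 1, 2 or 3. STMN2, a regulator of neuronal microtubules, had 10.9, 10.9 and 11.5 CPM in hNMP-D4 and 0.924, 0.676 and 1.11 CPM in hNMP-D3 (log2 fold change 3.57, SE 0.2001, adjusted p = 3.33e-06), while SYP, a synaptic vesicle protein, was lower (log2 fold change -1.53, SE 0.402, adjusted p = 0.0274). SYP was not called without hNMP-D4 replicate 2 or hNMP-D3 replicate 1, 2 or 3 (adjusted p = 0.0808, 0.0768, 0.0522 and 0.0857). Of 12 tested imprinted genes 3 were higher and 1 lower (median 0.11), the 3 becoming 5 without hNMP-D4 replicate 1 or 3 and 1 without hNMP-D3 replicate 3 and the 1 becoming 2 without hNMP-D4 replicate 3. DLK1, a membrane protein related to Notch ligands, had 35.3, 55.6 and 41.1 CPM in hNMP-D4 and 10.4, 5.88 and 10.2 CPM in hNMP-D3 (log2 fold change 2.30, SE 0.241, adjusted p = 0.000358), and MAGEL2, a regulator of ubiquitination, had 1.44, 2.83 and 3.19 CPM in hNMP-D4 and 8.502, 7.03 and 8.79 CPM in hNMP-D3 (log2 fold change -1.70, SE 0.253, adjusted p = 0.000795). Of 14 tested immediate early genes 5 were higher and 3 lower (median 0.14), the 5 becoming 1 without hNMP-D3 replicate 2 or 3. Of 18 cholesterol synthesis genes 3 were higher (16.7%) and 1 lower (5.56%), with a median of -0.02. Of 38 tested ribosomal protein genes 2 were higher (5.26%) and 0 lower, with a median of 0.08. Of 13 mitochondrially encoded genes 3 were higher (23.1%) and 0 lower, with a median of 0.06. The 3 cholesterol genes became 1 without hNMP-D4 replicate 2 or hNMP-D3 replicate 1, 2 or 3 and the 1 lower one 3 and 2 without hNMP-D4 replicate 1 or 3, the 2 ribosomal protein genes 1 without hNMP-D4 replicate 3 and 0 without hNMP-D3 replicate 1 or 2, and the 3 mitochondrial genes 1 without hNMP-D3 replicate 3.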
